A study of Mus musculus with 17 samples.

Results

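The libraries described here came from the orbitofrontal cortex (OFC), a frontal cortical area involved in valuing outcomes, and differ in how the tissue was taken: 5 were brain tissue imprints and 6 were dissections of bulk tissue. They were all the OFC columns of the deposited count tables, 11 of the 17 libraries of the series. An imprint carries away the material that adheres to an instrument pressed against tissue, whereas a dissection removes a block of it. All animals were of the DAT-cre line, which expresses Cre recombinase under control of the dopamine transporter gene, and thus in dopamine neurons. Imprints belong to the stage before an addiction protocol in which mice stimulate their own dopamine neurons with light (oDASS), and dissections to the stage after it. Each kind holds mice that were classed as perseverers (addicted) or renouncers (not addicted): the imprints were 3 renouncers and 2 perseverers, and the dissections 3 of each. The labels used here give no age and do not say which libraries share an animal or whether replicates are separate animals, so p-values measure the spread between these libraries, which may be technical. Because every imprint is from before the protocol and every dissection from after it, stage and collection method cannot be told apart, and each difference below is one between kinds of library.

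What an RNA library samples depends on which cells, and which parts of cells, reach the lysis buffer. Blood brings in red cells, which retain transcripts of haemoglobin and haem synthesis, platelets, which carry RNA inherited from megakaryocytes, and white cells. Cortical tissue brings in neurons, whose transcripts are spread over cell bodies, dendrites and axons, together with astrocytes, oligodendrocytes, microglia and vessel cells, and cell nuclei add long non-coding RNAs that stay near chromatin.

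A set of 4 promoters is shown because red cell and platelet genes are among those that differed most between the libraries, and many of them are known targets of GATA-family factors. A single form of the motif of these factors, AGATAA, was searched on both strands in the 250 bases before each RefSeq start (GRCm38.p6). Variants of these letters were neither searched nor marked. Alas2 and Epb42 are red cell genes, Gp5 and Pf4 platelet genes. Sequences run 5′ to 3′ on the gene's own strand, and capitals mark the motif as read on the other strand, TTATCT.
Alas2, chrX:150547167-150547416, plus strand: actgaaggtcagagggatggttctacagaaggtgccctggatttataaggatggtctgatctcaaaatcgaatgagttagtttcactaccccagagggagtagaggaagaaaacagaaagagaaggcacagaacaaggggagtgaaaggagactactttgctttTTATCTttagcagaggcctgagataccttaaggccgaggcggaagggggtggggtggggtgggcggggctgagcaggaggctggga
Epb42, chr2:121036878-121037127, minus strand: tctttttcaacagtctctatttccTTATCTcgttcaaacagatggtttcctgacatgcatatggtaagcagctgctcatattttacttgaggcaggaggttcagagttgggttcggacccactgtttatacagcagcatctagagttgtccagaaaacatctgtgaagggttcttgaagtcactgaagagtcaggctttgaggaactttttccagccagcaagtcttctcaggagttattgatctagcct
Gp5, chr16:30310782-30311031, minus strand: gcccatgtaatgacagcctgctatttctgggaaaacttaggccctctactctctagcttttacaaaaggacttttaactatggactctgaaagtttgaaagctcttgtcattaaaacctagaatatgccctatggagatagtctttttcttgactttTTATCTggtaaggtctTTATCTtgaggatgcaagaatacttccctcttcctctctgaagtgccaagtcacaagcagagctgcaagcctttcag
Pf4, chr5:90772185-90772434, plus strand: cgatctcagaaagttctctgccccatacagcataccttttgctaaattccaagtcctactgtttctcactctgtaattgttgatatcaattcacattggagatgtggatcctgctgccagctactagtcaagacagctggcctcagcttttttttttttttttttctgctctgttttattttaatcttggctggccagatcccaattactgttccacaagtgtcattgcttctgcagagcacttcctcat
The motif lay at bases 165 to 170 of the Alas2 window, at bases 25 to 30 of the Epb42 window, and at bases 158 to 163 and 174 to 179 of the Gp5 window. The Pf4 window does not contain these letters. Of all 32851 promoters in the RefSeq table, 9.99% held the motif on either strand. It was present in 5 of the 13 red cell promoters that could be matched (Alas2, Epb42, Kel, Rhd and Tmcc2) and in 3 of the 13 platelet promoters (Gp5, Gp6 and P2rx1). These matches are a description of letters, not of binding.

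A microRNA of the red cell lineage was seen in the imprints. Mir451a, whose product promotes red cell maturation, had 18, 31, 39, 38 and 37 counts in the imprints (renouncers 1 to 3, then perseverers 1 and 2) and 0 in all 6 dissections. Mir451b is annotated on the opposite strand of the same interval, chr11:78073170-78073241 (RefSeq, GRCm38.p6), and had the same counts in every library. The library kit does not keep the strand, so the reads cannot be assigned to one or the other, and libraries of this kind are not made to measure mature microRNAs. Both genes were chosen after their values were seen. Their mature sequences are shown with the seed, bases 2 to 8, in capitals, and the seeds differ.
mmu-miR-451a: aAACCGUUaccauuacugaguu
mmu-miR-451b: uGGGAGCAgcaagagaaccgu

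The haemoglobin genes (10 symbols, among them Hba-a1 at chr11:32283672-32284486 and Hbb-bs at chr7:103826523-103827928) took 29.7% of the counts of renouncer imprint 1 and 85.4% to 90.7% of the other 4 imprints, against 0.0253% to 0.0770% of the dissections. Near-identical pairs (such as Hba-a1 and Hba-a2, or Hbb-b1 and Hbb-bs) held almost the same counts, so the tables count most of these reads under both names. With each pair counted once, the shares were 17.5% in renouncer imprint 1, 74.6% to 82.9% in the other imprints and 0.0126% to 0.0385% in the dissections. All 10 symbols were removed before scaling. This left 6556037 counts in renouncer imprint 1, 980475 to 1306576 in the other imprints and 13986815 to 20939817 in the dissections. Renouncer imprint 1 therefore stands apart in depth and in blood content, and results that rest on it are given without it. Unless a sum is named, levels below are CPM, counts scaled to a common library size outside haemoglobin with the TMM method of edgeR, in the order renouncer imprints 1 to 3 and perseverer imprints 1 and 2.

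Blood transcripts other than haemoglobin were also present. Marker genes of red cells, platelets and white cells (87 genes, no haemoglobin among them) took 1.97%, 25.0%, 16.9%, 11.1% and 23.1% of the remaining counts of the 5 imprints, and 0.0834% to 0.125% of those of the dissections. Brain cell markers (99 genes) took 5.37%, 0.769%, 2.27%, 3.03% and 1.12% in the imprints and 3.74% to 4.98% in the dissections. Renouncer imprint 1 was thus the imprint with the smallest share of blood markers and the largest share of brain markers, and the only imprint at or above the dissections for the latter.

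**Figure D1:**
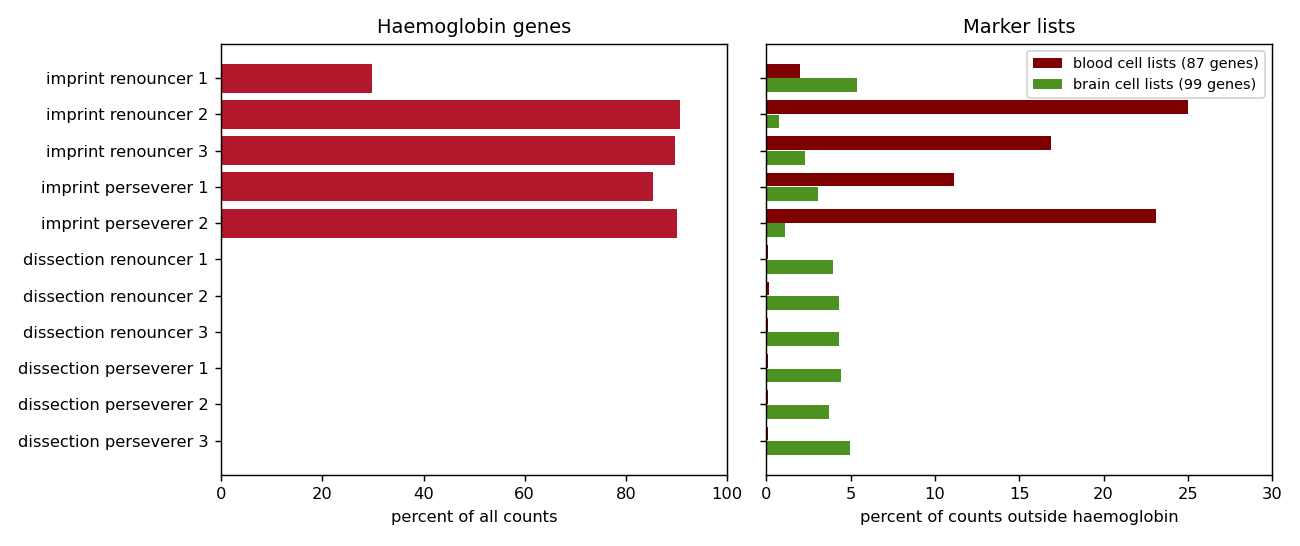
Left, the 10 haemoglobin symbols as a percent of all counts, near-identical pairs counted under both names; right, blood cell and brain cell marker lists as a percent of the counts outside haemoglobin; each bar is 1 library. Haemoglobin holds 85.4% to 90.7% of 4 imprints and 29.7% of renouncer imprint 1, and its bars in the dissections are too short to see at 0.0770% or less.

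Of 14552 genes tested with phenotype as a term (edgeR quasi-likelihood test, Benjamini-Hochberg adjusted p under 0.05), 4860 (33.4%) differed between imprints and dissections, 2319 higher in imprints (15.9% of the genes tested) and 2541 lower (17.5%). All 5 imprints lay above all 6 dissections for 1335 genes (9.17%) and below them for 2134 genes (14.7%). The median log2 fold change of all genes tested, imprint over dissection, was -0.13. The direction of many genes depends on what is held constant. With library totals outside haemoglobin as the scale, that median was -0.83 and 1184 of 5918 calls (20.01%) were higher in imprints, against 47.7% with TMM. With the summed counts of 13 general neuron genes as the scale, an alternative added after the data were seen, the median was 1.23 and 8513 of 8879 calls (95.9%) were higher. Every list median below is to be read against the all-gene median on its own scale. Counts of calls are to be read against the shares over all genes tested, 15.9% higher and 17.5% lower with TMM. Counts of genes without overlap are to be read against 9.17% above and 14.7% below. Of the genes tested, 83 had no count in any imprint and 28 none in any dissection.

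Red cell genes other than haemoglobin were far higher in imprints. Of the 15 such genes tested, 13 were higher in imprints and none lower, with a median log2 fold change of 9.72, positive under every scaling tried. Members with almost no count in dissections passed the low-count filter only through the imprints and so had to differ. Their calls and p-values, here and below, describe the imprints and are no test. Alas2 (chrX:150547417-150570622), which encodes the red cell enzyme for the first step of haem synthesis, stood at 4874, 395617, 157154, 66841 and 308881 CPM in the imprints and at 2.62 to 8.66 CPM in the dissections. The lowest imprint was far above the highest dissection, and the imprints themselves spread over more than an order of magnitude. Its log2 fold change was 15.39 (SE 1.17, edgeR adjusted p = 8.98e-08).

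Genes of the red cell membrane followed the same order of libraries, lowest in renouncer imprint 1 and highest in renouncer imprint 2 or perseverer imprint 2. Slc4a1, the band 3 anion exchanger, was at 44.6, 7113, 1517, 920 and 5603 CPM in the imprints and at no more than 0.267 CPM in any dissection (log2 fold change 15.10, SE 1.43, edgeR adjusted p = 4.30e-06). Epb42, which encodes protein 4.2, was at 9.17, 1060, 278, 153 and 758 CPM with 0 counts in the dissections. Its imprint mean was at least 19798-fold higher when the dissections are set to a floor of 3 counts over the group. Renouncer imprint 1 was far below that mean. Bpgm, which makes the 2,3-bisphosphoglycerate that lowers oxygen affinity, was at 938 to 83626 CPM in the imprints and at 51.5 to 78.5 CPM in the dissections. The members that did not pass were Sptb, with a log2 fold change of 1.57, and Tmcc2, with 0.82.

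All 15 platelet genes tested were higher in imprints (median log2 fold change 8.94), 14 of them also with library totals as the scale. Ppbp (chr5:90768518-90770063), the precursor of the chemokine CXCL7, was at 1017, 1819, 1913, 613 and 1779 CPM in the imprints and at 0 to 0.509 CPM in the dissections. Pf4 (chr5:90772435-90773383), platelet factor 4, was at 821, 1785, 2168, 477 and 1624 CPM against 0.889 to 2.62 CPM, a log2 fold change of 9.91 (SE 0.49, edgeR adjusted p = 1.12e-09). For both genes perseverer imprint 1 was the lowest imprint, and renouncer imprint 1, lowest for the red cell genes, was not. Gp5, a subunit of the platelet von Willebrand factor receptor whose promoter is shown above, was at 82.2, 323, 264, 39.6 and 191 CPM against 0.427 to 1.79 CPM, a log2 fold change of 7.19. Cd226, an adhesion receptor of platelets and lymphocytes, was at 90.8, 91.5, 96.8, 50.1 and 109 CPM, with 3 counts over all dissections.

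The 15 higher genes with the smallest p-values were Ctla2a, Cd226, Ctla2b, Clec1b, Mpig6b, Cnn2, Gp9, Srgn, Pf4, Rgs18, Slpi, Myl9, Ppbp, Rac2 and Nkg7. Ctla2a, a cysteine protease inhibitor, was first at 2092, 3099, 3075, 1034 and 2533 CPM against 2.46 to 5.53 CPM, a log2 fold change of 9.20 (SE 0.37, edgeR adjusted p = 3.91e-10). Clec1b encodes the platelet receptor CLEC-2 and Mpig6b an inhibitory receptor of megakaryocytes and platelets. Clec1b, Mpig6b and Cd226 had 5, 1 and 3 counts over all dissections, so they passed the low-count filter only through the imprints. The imprints of Ctla2a lay within a few-fold of each other, while those of Alas2, whose fold was larger, spread more.

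White cell genes were present as well. All 8 neutrophil genes (median log2 fold change 9.30), all 8 B cell genes (10.85 with genes at 0 in dissections set to their bound), 11 of 12 T and NK cell genes (8.39), all 5 MHC class II genes (8.23) and 7 of 8 monocyte genes (5.69) were higher in imprints, with positive medians under every scaling tried. The filter on low counts left 15 of 19 red cell, 8 of 16 neutrophil, 8 of 9 monocyte and 12 of 15 T and NK cell genes. Members with almost no count in dissections passed it only through the imprints and so had to differ, and these counts describe the imprints and are no test of the lists. S100a8, a calcium-binding protein abundant in neutrophils, was at 1403, 2881, 273, 771 and 788 CPM in the imprints and at 0.198 to 0.961 CPM in the dissections. Cxcr2, a neutrophil chemokine receptor, had 0 counts in the dissections, and its imprint mean was at least 1863-fold higher. Ms4a1 (chr19:11249679-11266149), the B cell antigen CD20, was at 27.3, 162, 107, 294 and 169 CPM against 0 counts, with an imprint mean at least 6658-fold higher. Cd74, the invariant chain of antigen presentation, was at 389, 3499, 2225, 6664 and 3874 CPM against 3.11 to 11.4 CPM. Neutrophil genes were highest in renouncer imprints 1 and 2, while B cell, T cell and MHC class II genes were highest in perseverer imprint 1, so the mix of white cells differed among imprints. Nr4a1, which is also an activity-induced gene of neurons, was the only monocyte list member lower in imprints, with a log2 fold change of -1.56.

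Interferon-stimulated genes were higher in imprints for 8 of 10 tested, with a median log2 fold change of 4.06, positive under every scaling tried. Rsad2 (chr12:26442743-26456452), which encodes the antiviral enzyme viperin, was at 118.6, 16908, 2961, 2497 and 10512 CPM in the imprints and at 0.637 to 3.26 CPM in the dissections, a log2 fold change of 11.85 (SE 1.18, edgeR adjusted p = 6.61e-06). Isg15, a ubiquitin-like modifier, was at 29.6, 2806, 639, 468 and 1309 CPM against 1.23 to 6.14 CPM. Both were highest in renouncer imprint 2 and perseverer imprint 2 and lowest in renouncer imprint 1. The summed red cell genes also stood in that order (without TMM, 8314 CPM in renouncer imprint 1, 239112 in renouncer imprint 2 and 220804 in perseverer imprint 2). The part of blood content in these values was not tested. Ifit2 and Ifit3, members of the same response, did not pass, at log2 fold changes of -0.29 and -0.56.

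**Figure D2:**
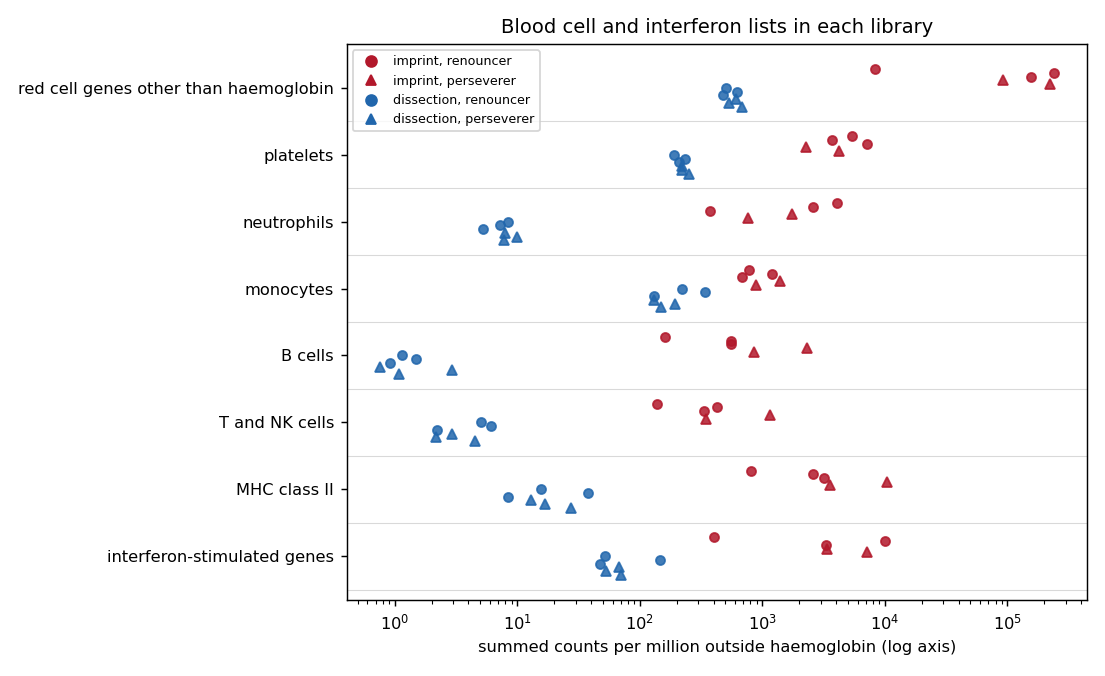
Summed CPM outside haemoglobin (log axis) of each blood cell list and of the interferon-stimulated genes, 1 point a library, imprints in red and dissections in blue. For every list the lowest imprint is above the highest dissection; for red cell genes renouncer imprint 1 is the lowest imprint at 8314.

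Neuronal genes were mostly lower in imprints relative to the other genes. Of 13 general neuron genes 8 were lower and none higher (median log2 fold change -0.86), of 9 excitatory neuron genes 6 were lower and 1 higher (-1.12), and of 12 inhibitory neuron genes 9 were lower and none higher (-1.56). The first 2 medians turn positive, at 0.47 and 0.36, with the neuron list itself as the scale, and that of inhibitory neurons stays negative at -0.18 against an all-gene median of 1.23. In bulk RNA, fewer cells of a type and less RNA per cell cannot be told apart. Snap25 (chr2:136713439-136782428), a protein of synaptic vesicle fusion, was at 985, 526, 600, 801 and 458 CPM in the imprints and at 3909, 2792, 3509, 3210, 3464 and 2532 CPM in the dissections. All imprints were below all dissections, with a log2 fold change of -2.28 (SE 0.27, edgeR adjusted p = 9.98e-06), and on the neuron list scale it was -0.87.

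Members of the neuronal lists did not move as a block. Rbfox3, the nuclear splicing regulator NeuN, was at 267, 73.2, 192, 178 and 141 CPM in the imprints and at 147 to 197 CPM in the dissections, with overlapping libraries and a log2 fold change of -0.00 (SE 0.26). Slc17a7, which loads glutamate into synaptic vesicles, was at 525, 540, 641, 376 and 491 CPM in the imprints and at 950 to 1363 CPM in the dissections, all imprints below, with a log2 fold change of -1.13 that became 0.36 on the neuron list scale. Nrgn, a calmodulin-binding protein of excitatory neurons whose mRNA also occurs in platelets, was at 1711, 1314, 1876, 1358 and 1265 CPM against 805 to 1121 CPM, a log2 fold change of 0.71 (SE 0.22, edgeR adjusted p = 0.0181) that became -0.02 with library totals as the scale. Vip, a peptide of an interneuron class, was the inhibitory list member that differed most, at 11.7, 6.87, 23.6, 1.62 and 2.01 CPM against 73.1 to 110.97 CPM, a log2 fold change of -3.36 (SE 0.40, edgeR adjusted p = 9.73e-06) and -2.10 on the neuron list scale. Gad1 and Gad2, which synthesise GABA, had log2 fold changes of -1.63 and -1.62, and -0.14 and -0.22 on the neuron list scale.

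The GABA-A receptor subunits, which form the main inhibitory chloride channels of the cortex, were the receptor list with the lowest median. Of 12 tested, 9 were lower in imprints and none higher, and for 9 every imprint was below every dissection, with a median log2 fold change of -2.03. With library totals the median was -2.74, and with the neuron list as the scale -0.63, where 5 subunits were lower and 3 higher. Gabra4, an alpha subunit of extrasynaptic receptors, was at 24.3, 32.0, 17.4, 14.5 and 28.1 CPM in the imprints and at 165, 131, 177, 146, 136 and 110 CPM in the dissections, a log2 fold change of -2.70 (SE 0.25, edgeR adjusted p = 6.34e-07). Gabra3, another alpha subunit, was at 19.1, 11.4, 11.2, 15.3 and 4.02 CPM against 55.4 to 88.7 CPM, a log2 fold change of -2.57 (SE 0.30, edgeR adjusted p = 8.48e-06). Gabra5, an alpha subunit of tonic inhibition, was at 8.08 to 14.1 CPM against 44.8 to 70.5 CPM, a log2 fold change of -2.44. For each of these 3 subunits the highest imprint was well below the lowest dissection. On the neuron list scale they kept negative log2 fold changes of -1.25, -1.28 and -1.04, each past the threshold. Gabra2, Gabrb1 and Gabrg3 did not pass, at -0.27, -0.25 and -0.24.

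Ionotropic glutamate receptor subunits, the excitatory counterparts, were lower for 7 of 15 tested and higher for 1. Over all genes tested, 17.5% were lower and 15.9% higher. The median log2 fold change of these subunits was -0.86 (0.44 on the neuron list scale). Grin2b, an NMDA receptor subunit, was the member that was higher, at 224, 93.8, 183, 93.7 and 109 CPM in the imprints and 39.8 to 62.5 CPM in the dissections, a log2 fold change of 1.39 (SE 0.25, edgeR adjusted p = 4.32e-04). With library totals as the scale it was 0.70 and did not pass (edgeR adjusted p = 0.18). Gria4, an AMPA receptor subunit, had a log2 fold change of -1.90. Summed counts set against the 13 neuron genes gave glutamate receptor subunits 17.8% to 32.9% of the neuron list in imprints and 12.7% to 16.0% in dissections, and GABA-A subunits 10.1% to 13.6% in imprints and 12.6% to 17.9% in dissections. Against neurons, the first set did not overlap between kinds of library, and the second did; neither was tested.

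Of 8 dopamine genes tested, 4 were lower in imprints and none higher (median -0.87, and 0.52 on the neuron list scale). The shares over all genes tested were 17.5% lower and 15.9% higher. Th, the rate-limiting enzyme of dopamine synthesis, had 0 counts in every imprint and 334 counts over the dissections (1.602 to 3.13 CPM). The dissection mean was 9.15-fold above a floor of 3 counts over all imprints, most of whose depth is renouncer imprint 1. On library totals, 3 counts were 0.458 CPM in that library and 2.30 to 3.06 CPM in the other imprints, near the level in dissections. Th did not pass in perseverers alone (edgeR adjusted p = 0.0701). Drd1, a dopamine receptor, was at 2.36 CPM in renouncer imprint 1, at 0 in the other 4 imprints and at 7.74 to 12.4 CPM in the dissections, with a log2 fold change of -3.14. In the 4 imprints with 980475 to 1306576 counts, a 0 means that the gene was not detectable at this depth.

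**Figure D3:**
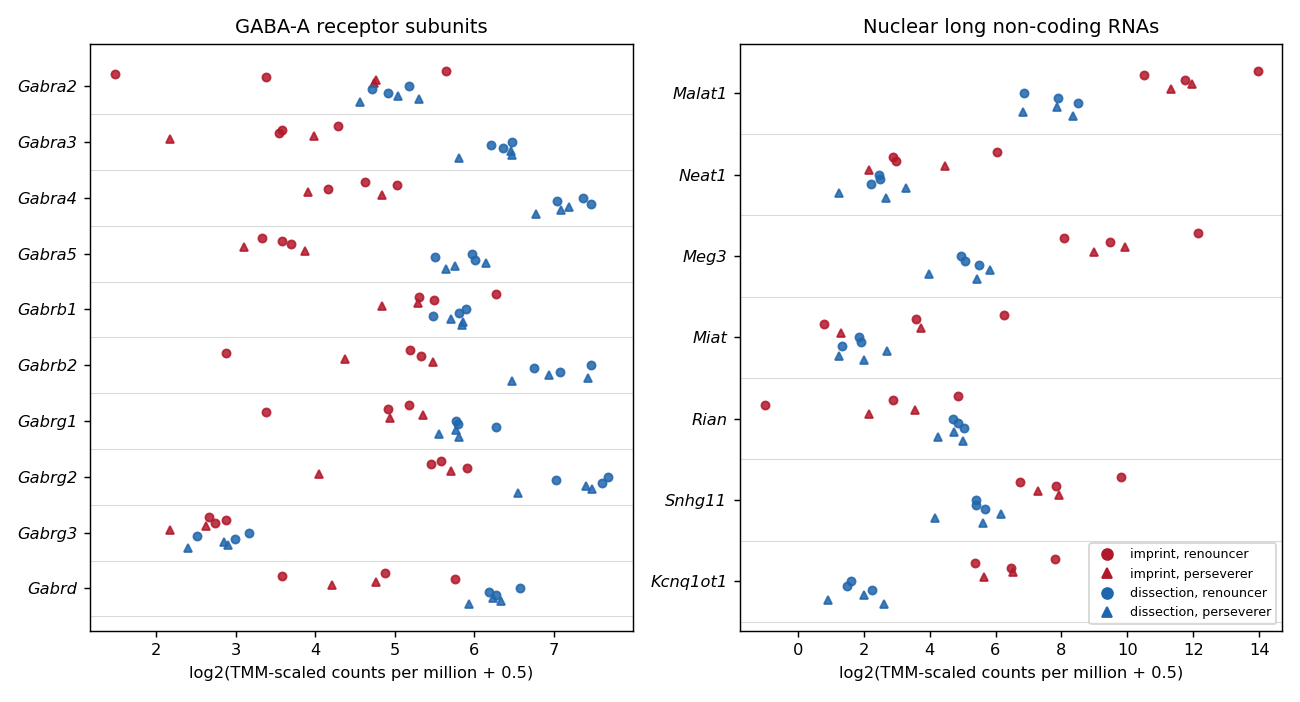
Level of 10 GABA-A receptor subunits (left) and each nuclear long non-coding RNA (right) as log2 of TMM-scaled CPM plus 0.5, 1 point a library, imprints in red and dissections in blue. Imprints lie below dissections without overlap for all of the subunits drawn except Gabra2, Gabrb1 and Gabrg3; Malat1, Meg3, Kcnq1ot1 and Snhg11 lie above without overlap.

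Astrocyte and oligodendrocyte lists had medians nearer the all-gene median of -0.13 than the general, excitatory and inhibitory neuron lists. Their calls are to be read beside those over all genes tested, 15.9% higher and 17.5% lower. Of 14 astrocyte genes 1 was higher and 4 were lower (median 0.12, and -0.59 with library totals). Aldoc, an astrocytic glycolytic enzyme, was at 7266, 2774, 6404, 6485 and 3691 CPM against 2313 to 3654 CPM, a log2 fold change of 0.98 that only just passed (edgeR adjusted p = 0.0187) and was 0.36 with library totals, where it did not pass (edgeR adjusted p = 0.55). Gja1, the gap junction protein connexin 43, had a log2 fold change of -0.81 (0.64 on the neuron list scale) and was below the dissections in every imprint. Of 12 oligodendrocyte genes 1 was higher and 2 were lower (median -0.57, and 0.82 on the neuron list scale). Cnp, an enzyme of myelin, had a log2 fold change of 0.99, which was 0.13 with library totals and did not pass (edgeR adjusted p = 0.754). Olig1, a transcription factor of the oligodendrocyte lineage, was at 268, 192, 272, 255 and 308 CPM against 126 to 162 CPM, all imprints above, with a log2 fold change of 0.87 (SE 0.18, edgeR adjusted p = 1.57e-03) that was 0.12 with library totals as the scale and did not pass (edgeR adjusted p = 0.799).

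Microglia were the brain cell type with the most genes higher in imprints, 8 of 13 tested and none lower, with a median log2 fold change of 0.68 that became -0.10 with library totals as the scale, against -0.83 for all genes. P2ry12 (chr3:59216271-59262985), a purine receptor of resting microglia that platelets also carry, was at 189, 174, 217, 146 and 167 CPM in the imprints and at 37.2 to 48.7 CPM in the dissections, a log2 fold change of 2.06 (SE 0.19, edgeR adjusted p = 8.05e-07). Tmem119, which marks microglia and not blood cells, was at 45.4, 126, 191, 82.4 and 133 CPM against 32.3 to 52.4 CPM, and renouncer imprint 1 fell inside the range of the dissections. Its log2 fold change was 1.43 (SE 0.31, edgeR adjusted p = 2.06e-03). C1qb, a complement subunit of microglia and macrophages, had a log2 fold change of 0.99. With library totals Tmem119 was at 0.52 (edgeR adjusted p = 0.229) and C1qb at 0.18 (edgeR adjusted p = 0.681), so neither passed.

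Calls in the vessel and surface cell lists were set beside the shares over all genes tested, 15.9% higher and 17.5% lower. Of 14 endothelial genes 3 were higher and none lower (median 0.46, with -0.30 on library totals and -0.20 without renouncer imprint 1). Among those 3, Pecam1 and Esam are also made by platelets: Pecam1 was at 38.6, 61.8, 14.9, 42.0 and 70.4 CPM against 3.11 to 9.75 CPM. Cldn5, the tight junction protein of the blood-brain barrier, was at 71.9, 4.58, 42.2, 0 and 24.1 CPM against 21.8 to 26.8 CPM, with overlap and a log2 fold change of 0.14. None of 10 pericyte and smooth muscle genes passed, and their median of 0.72 turned to -1.07 without renouncer imprint 1. Of 13 meningeal fibroblast genes 1 was higher and 2 were lower (median 0.22, with -0.37 on library totals and -0.93 without renouncer imprint 1). Aqp1, a water channel of both choroid plexus and red cells, was the 1 member of the 3 choroid plexus genes tested that was higher.

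Set against the 13 neuron genes, most other brain lists were larger in imprints. Astrocyte genes summed to 253% to 348% of the neuron list in imprints and 77.3% to 123.8% in dissections, oligodendrocyte precursor genes to 8.85% to 21.8% and 2.79% to 3.87%, microglial genes to 26.8% to 88.6% and 8.56% to 14.5%, and excitatory neuron genes to 76.6% to 139% and 44.7% to 65.7%. None of these ranges overlapped. Inhibitory neuron genes, at 7.13% to 13.3% and 9.58% to 12.6%, did overlap, as did oligodendrocyte genes, at 198.7% to 427% and 52.9% to 200.5%. These ratios do not depend on the scaling, but they do depend on the 13 genes. Snap25, at 458 to 985 CPM in imprints and 2532 to 3909 CPM in dissections, is in that sum. Its lower level in imprints raises every ratio there, whereas Rbfox3 overlapped between kinds of library. Nrgn, whose mRNA also occurs in platelets, is in the excitatory sum. It was at 1265 to 1876 CPM in imprints and 805 to 1121 CPM in dissections, while 6 of the 9 excitatory genes were lower. Ratios without Snap25 or Nrgn were not computed.

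**Figure D4:**
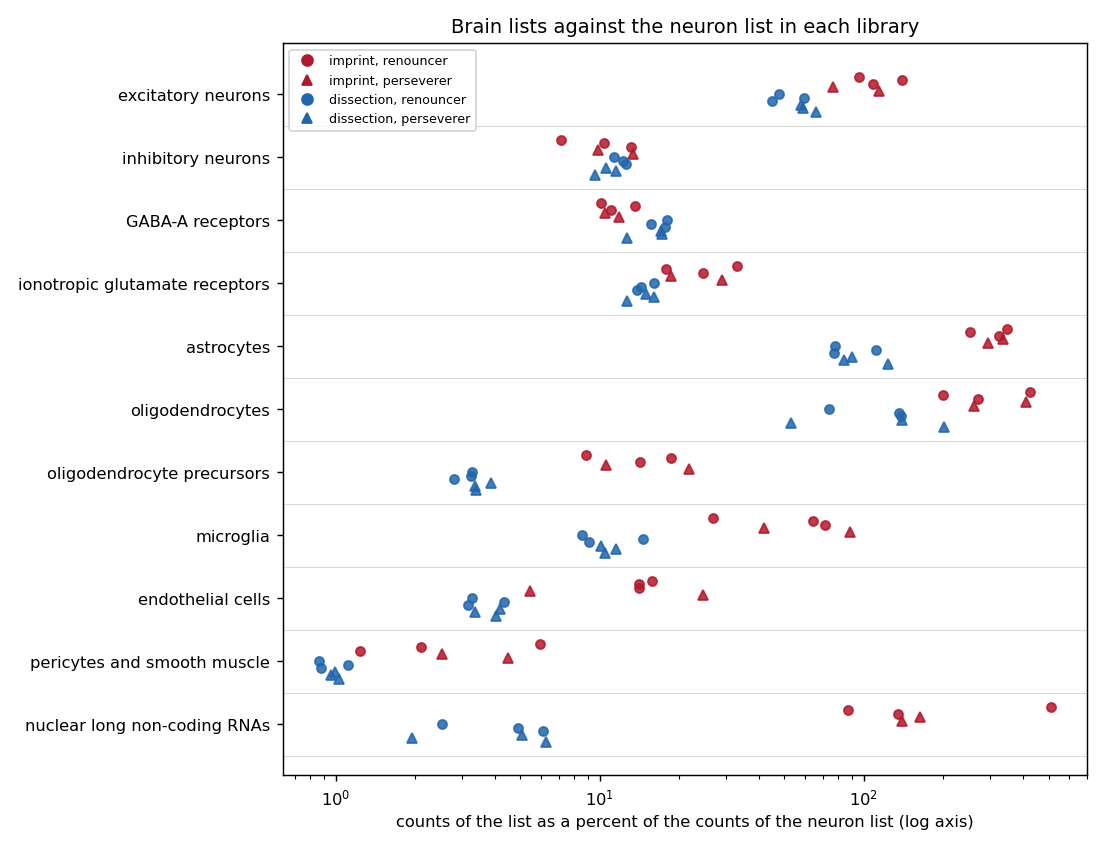
Counts of each brain list as a percent of the counts of the 13 general neuron genes (log axis), 1 point a library, imprints in red and dissections in blue. Inhibitory neuron, oligodendrocyte and GABA-A receptor genes overlap between kinds of library; astrocyte genes run from 253% to 348% in imprints against 77.3% to 123.8% in dissections.

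Nuclear long non-coding RNAs were higher in imprints for 6 of 7 tested and lower for none, with a median log2 fold change of 2.73 (1.998 without renouncer imprint 1), positive under every scaling tried. Malat1 (chr19:5795690-5802672), an abundant RNA of nuclear speckles, was at 15848, 1456, 3413, 3950 and 2553 CPM in the imprints and at 116, 236, 364, 233, 113 and 326 CPM in the dissections, a log2 fold change of 4.42 (SE 0.58, edgeR adjusted p = 2.57e-05). Meg3 (chr12:109540996-109571729), an imprinted nuclear RNA of neurons, was at 4525, 268, 713, 975 and 503 CPM against 15.4 to 57.0 CPM, a log2 fold change of 5.07 (SE 0.70, edgeR adjusted p = 9.63e-05). For both, renouncer imprint 1 was the highest by far and every other imprint was also above every dissection, and without renouncer imprint 1 the log2 fold changes were 3.61 and 4.02. Kcnq1ot1 (chr7:143213111-143296547), an antisense RNA that coats an imprinted domain, was at 225, 41.2, 88.2, 92.1 and 50.3 CPM against 1.40 to 5.59 CPM, although its reads cannot be separated from those of the gene it overlaps. Neat1 and Miat rested on renouncer imprint 1: their log2 fold changes of 2.13 and 2.69 did not pass without it (edgeR adjusted p = 0.13 and 0.17). Rian (chr12:109603945-109661716), from the same imprinted region as Meg3, was not higher, at 28.4, 6.87, 0, 11.3 and 4.02 CPM against 18.5 to 32.9 CPM, with a log2 fold change of -1.20 (edgeR adjusted p = 0.0856). It was lower without renouncer imprint 1, at -2.19 (edgeR adjusted p = 0.00325), and with library totals as the scale, at -1.78 (edgeR adjusted p = 0.0414).

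Other gene groups were mixed. Their calls are to be read beside those over all genes tested, 15.9% higher and 17.5% lower. Genes of respiratory complex I, given below, were under both shares. Of 22 activity-induced genes tested, 4 were higher and 9 lower (median -0.73, and 0.62 on the neuron list scale). Arc, which regulates AMPA receptor trafficking, was at 131, 268, 289, 84.02 and 50.3 CPM in the imprints and at 499 to 1236 CPM in the dissections, a log2 fold change of -2.52 (SE 0.42, edgeR adjusted p = 2.23e-04). Jund, a subunit of the AP-1 transcription factor, went the other way, at 216, 2366, 1471, 710 and 3152 CPM against 120 to 167 CPM. It was lowest in renouncer imprint 1 and highest in perseverer imprint 2, followed by renouncer imprint 2. Alas2, Slc4a1 and Epb42 were also lowest in renouncer imprint 1, but highest in renouncer imprint 2. The part of blood content in the level of Jund was not tested. Fos, the gene most used as a sign of recent activity, did not pass, at 17.4 to 77.8 CPM against 21.9 to 46.7 CPM. Of 12 heat shock genes 4 were lower and none higher (median -0.60, and 0.89 on the neuron list scale), and of 13 hypoxia and glycolysis genes 3 were lower and none higher (-0.66, and 0.82). Of 6 cytokine and acute inflammation genes 5 were higher, among them Il1b at 66.7, 144, 0, 90.5 and 48.2 CPM against 0.268 to 1.28 CPM, and Ptgs2 was lower with a log2 fold change of -3.54. Of 80 cytosolic ribosomal protein genes 29 were higher and 1 lower, with a median of 0.61 that turned to -0.14 with library totals, where 6 were higher and 4 lower. Among the remaining lists, 1 of 8 upper layer genes was higher and 3 were lower (median -0.26, and 1.15 on the neuron list scale), 4 of 8 deep layer genes were lower (-0.72, and 0.69), 2 of 6 olfactory bulb and neuroblast genes were lower (-0.41, and 0.79), 1 of 12 genes with mRNA found in dendrites was higher and 4 were lower (-0.49, and 0.89), and 2 of 37 genes of respiratory complex I were higher and 4 lower (-0.28, and 1.14). None of 4 sex marker genes passed. Of 9 oligodendrocyte precursor genes 1 was higher and 1 lower (0.49, and -0.34 with library totals).

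**Figure D5:**
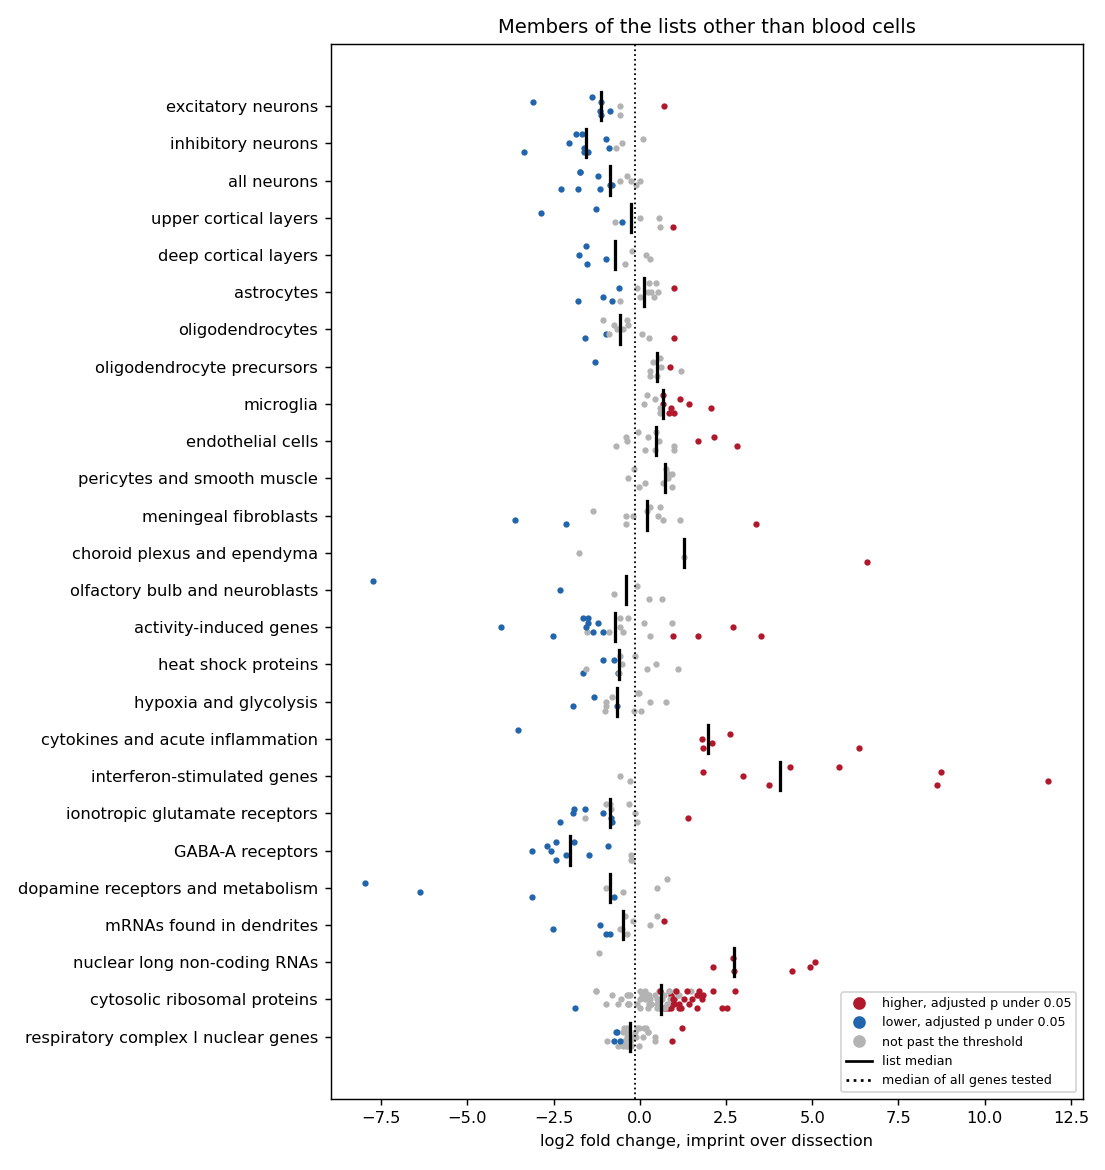
Log2 fold change, imprint over dissection, of each tested member of the lists other than blood cells; red and blue points passed the threshold, black bars are list medians and the dotted line is the all-gene median of -0.13. GABA-A receptor genes have the lowest list median at -2.03, and interferon-stimulated genes the highest at 4.06.

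The 15 lower genes with the smallest p-values were Stk32c, Serpini1, Nap1l2, Mal2, Tusc3, Scg5, Tmem30a, Nptx1, Kcnv1, Glrb, Gabra4, Nsg2, Fyttd1, Nsg1 and Atp6ap2. Stk32c, a serine/threonine kinase, was at 8.93, 9.15, 8.69, 4.85 and 6.03 CPM in the imprints and at 89.2 to 112.1 CPM in the dissections, a log2 fold change of -3.69 (SE 0.27, edgeR adjusted p = 5.96e-08). Serpini1, the secreted protease inhibitor neuroserpin, was at 31.5 to 58.0 CPM against 308 to 645 CPM, with a log2 fold change of -3.40. Scg5, a chaperone of prohormone convertase, had a log2 fold change of -2.47, the neuronal endosome genes Nsg1 and Nsg2 had -2.17 and -2.68, and Nptx1, a secreted pentraxin that gathers AMPA receptors, had -2.93. On the neuron list scale Stk32c, Serpini1, Mal2 and Nptx1 kept log2 fold changes of -2.41, -1.93, -1.42 and -1.53, each past the threshold.

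By level per length (TPM, computed outside haemoglobin), Alas2 led the imprints at 97495 ± 65086 TPM (SD, n = 5), against 7.35 ± 3.54 TPM in dissections (SD, n = 6), and other genes among the 15 highest were Gpx1, Ube2l6, Bpgm, Tmsb4x, Fth1, Ftl1, Slc25a39, Mkrn1, Cst3, Isg20, Fech, Ucp2 and Tmem256. The dissections were led by Cst3, the protease inhibitor cystatin C, at 14730 ± 3861 TPM. Of the 50 highest genes of each kind, 16 were shared.

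Library by library, imprints were less complex. After thinning to 900000 counts outside haemoglobin, 12915 ± 1093 genes were detected in imprints (SD, n = 5) and 14360 ± 81.6 in dissections (SD, n = 6; exact permutation test over all splits, two-sided p = 0.0152, adjusted over 3 measures 0.0227). Renouncer imprint 1, at 14747 genes, was above every dissection, and the other 4 imprints, at 12002 to 13041, were below them. The 50 highest genes took 40.8% ± 15.6 of the counts in imprints and 12.8% ± 1.15 in dissections (SD, n = 5 and 6; exact permutation p = 0.00216, the smallest the design allows, adjusted 0.00649), without overlap. Genes of 5000 bases or more took 13.7% ± 6.92 against 20.7% ± 1.19 (SD, n = 5 and 6; exact permutation p = 0.0433, adjusted 0.0433), a difference that did not keep its side of the threshold with blood cell lists removed (p = 0.0758, exact permutation) or without any 1 of 8 of the 11 libraries (p = 0.0556 to 0.0952, exact permutation). Renouncer imprint 1, at 25.5% in these long genes, was above every dissection (18.9% to 22.2%). The other 4 imprints, at 8.34% to 14.1%, were below them. Haemoglobin and blood markers also differ between kinds of library, and haemoglobin was removed before these measures were taken. With blood cell lists removed as well, the difference in genes detected was -1247.28 (exact permutation p = 0.0152). That in the share of the 50 highest genes was then 20.8 points (exact permutation p = 0.00216). Blood transcripts outside these lists were not removed, and their part was not tested.

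Most genes expressed in the dissections nevertheless had some count in the imprints, which does not show which cells the RNA came from. Of 8929 genes at 10 CPM or more in every dissection, 2 had no count in renouncer imprint 1 (0.0224%), and 453 (5.07%), 347 (3.89%), 168 (1.88%) and 273 (3.06%) had none in the other imprints, with 6 at 0 in all 4 of these. At least 10 counts were held by 8912 of the 8929 in renouncer imprint 1, and by 5267, 6834, 7736 and 5859 in the others. Of 1763 genes at 100 CPM or more in every dissection, 1 was at 0 in renouncer imprint 2 and none in the other 4 imprints. The imprints varied more among themselves: the biological coefficient of variation was 0.648 among imprints and 0.208 among dissections, and 0.625 and 0.177 at 900000 counts a library. At that depth Spearman correlations across genes, which are not independent replicates, were 0.751 to 0.819 among imprints, 0.950 to 0.969 among dissections, 0.808 to 0.842 between renouncer imprint 1 and the dissections, and 0.655 to 0.736 between the other imprints and the dissections. The fit shares 1 spread over both kinds (0.383 for all 11 libraries), which is too small for imprints and too large for dissections. These do not cancel in the difference between kinds, since the imprints are both fewer and more variable. Its errors may thus be too small as a whole and its calls too many.

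Whether the difference between kinds of library itself differed between perseverers and renouncers was tested as an interaction. No gene passed with edgeR (smallest adjusted p 0.225, with 1297 genes at an unadjusted p under 0.05) or with limma, and 79 passed with DESeq2. With 2 perseverer imprints this says little about small differences.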

How the data were processed

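Libraries were made from total RNA with SMART-Seq v4 and Nextera kits, per the labels' protocols. Values are unnormalized gene counts, whole numbers beside a gene length, as deposited by the authors. The submitters' processing notes name mm10 and FastQC 0.11.8. Not given in the sources used here: aligner, counter, annotation. Each table lists 25239 genes, no row lacks a name, and no row is a mitochondrially encoded gene, so a planned measure of their share had no value. Medial prefrontal dissections were not analysed here.

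From these counts, symbols starting with Hba- or Hbb- were removed (10 symbols). Genes were kept with filterByExpr, scaled with TMM and tested with edgeR 4.0.16 (R 4.3.3; glmQLFit with robust fitting, glmQLFTest, two-sided, phenotype as a term, Benjamini-Hochberg, threshold 0.05). Standard errors are the log2 fold change divided by the root of F, and are approximate. Library measures were compared with exact permutation tests. Total counts were 8960549 to 10662666 in imprints, and a count of 0 was set to a floor of 3 counts over its group. Folds at a floor compare it with the mean of the other kind of library, not with each library. Floors and intervals cover counting error only. On simulated counts for 14390 genes with 200 genes changed, edgeR recovered 16.4% of genes changed 2-fold, 68.7% at 4-fold and 95.5% at 8-fold, and 7 of its 127 calls were false. The simulation gave both kinds of library the same spread for each gene and no shift in composition. In the data the spreads differ and far more genes were called, so these rates need not hold there. Alternatives were DESeq2 1.42.0, limma 3.58.1 with voom, other scalings and filters, thinning, subsets, a replicate block and leaving out each library.

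Named genes were the 15 higher and 15 lower with the smallest p, members of the lists and the 15 highest per length; genes without an ordinary symbol were not named. Cell type lists, members and tests were chosen with earlier results of these data known. The scale of the 13 neuron genes, the Mir451 genes and a comparison within code numbers under 100 were chosen after the values were seen. Every replicate 1 library carries a code number under 100 in the labels and every other a number over 100, and the labels do not say what the number means. Sequences and coordinates are from RefSeq, GRCm38.p6. Results for some list members are not reported here; they remain in the list counts, medians and sums.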

Additional observations from a re-analysis of the deposited data

Results flagged for a closer look

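Within each kind of library, 78 groups of values (single measures and summed lists) were checked for a library whose gap to its nearest neighbour exceeded Dixon's 95% critical share of the range, 0.71 for 5 libraries and 0.625 for 6; chance marks about 1 in 20 groups. It marked 11 of the 78, and 6 of these were renouncer imprint 1. That library had the lowest haemoglobin share, 29.7% against 85.4% to 90.7%, and the most counts outside haemoglobin, 6556037 against 980475 to 1306576. It also had the highest summed CPM of pericyte and smooth muscle genes (309 against 20.1 to 76.5), of ionotropic glutamate receptors (1718 against 170 to 604), of mRNAs found in dendrites (13246 against 2433 to 5483) and of nuclear long non-coding RNAs (26646 against 832 to 4944).

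Perseverer imprint 1 was far above the other imprints for T and NK cell genes, at 1160 CPM against 139 to 425, and for MHC class II genes, at 10484 CPM against 815 to 3551. Among dissections, renouncer dissection 2 stood out for meningeal fibroblast genes, at 342 CPM against 60.3 to 116, and for interferon-stimulated genes, at 146 CPM against 47.7 to 70.6. Perseverer dissection 2 stood out for B cell genes, at 2.95 CPM against 0.763 to 1.501.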

How the results depend on the processing

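The number of genes that differed between kinds of library was 4860, and 3785 to 5715 when 1 library was left out, with 5715 without renouncer imprint 1. It was 3080 after thinning to 900000 counts, which tests fewer genes, 1866 in renouncers alone, which is fewer libraries, and 8879 with the neuron list as the scale, which was chosen after seeing the data. DESeq2 called 5954 and limma 4065. With a replicate block it was 3732; the deviations of same-numbered libraries correlated at 0.18, 0.016, 0.14, -0.011 and 0.071, so the numbers were not taken to pair libraries. The interaction with phenotype gave 79 genes with DESeq2, and 0 to 4 with 1 library left out, 4 being without perseverer imprint 2.

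The share of counts in genes of 5000 bases or more, -7.01 percentage points, ran from -9.97 to -5.67 with 1 library left out, and passed only without renouncer imprint 1 (p = 0.00476, exact permutation) or without renouncer dissection 2 or 3 (p = 0.0476 each, exact permutation); without any other library p was 0.0556 to 0.0952 (exact permutation). It also did not pass with splits within each phenotype (-7.01) or with blood cell lists removed (-5.02). Within code numbers under 100, added after seeing the data, with 2 imprints and 2 dissections that cannot reach the threshold, the 3 library measures differed by -510 genes, 13.5 points in the 50 highest genes and -1.46 points in long genes.

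List medians changed sign by more than 1 SD over the imprints as follows; the cause was not tested. On the neuron list scale they were 1.23 for all genes, 0.36 for excitatory neurons, 0.47 for all neurons, 1.15 for upper layers, 0.69 for deep layers, 0.82 for oligodendrocytes, 0.79 for olfactory bulb, 0.62 for activity-induced genes, 0.89 for heat shock, 0.82 for hypoxia, 0.44 for glutamate receptors, 0.52 for dopamine genes, 0.89 for dendritic mRNAs, 1.14 for complex I and 0.86 for sex markers. With library totals they were -0.59 for astrocytes, -0.10 for microglia and -0.14 for ribosomal proteins. With code numbers over 100 they were -0.39 for astrocytes, -1.56 for pericytes and -0.91 for meningeal fibroblasts. With 1 library left out, pericytes ran from -1.07 to 0.90 and meningeal fibroblasts from -0.93 to 0.65, both lowest without renouncer imprint 1. In perseverers alone meningeal fibroblasts were at -1.10 and choroid plexus at -6.13, the latter at -1.90 without a filter. Smaller changes of sign were found with library totals (oligodendrocyte precursors -0.34, endothelial cells -0.30 and meningeal fibroblasts -0.37), in perseverers alone (astrocytes -0.30, endothelial cells -0.50 and pericytes -0.70), with the replicate block (pericytes -0.46 and meningeal fibroblasts -0.38), with limma (astrocytes -0.06 and pericytes -0.25), with DESeq2 (meningeal fibroblasts -0.03) and without renouncer imprint 1 (astrocytes -0.18 and endothelial cells -0.20); meningeal fibroblasts were also below 0 without perseverer imprint 2 (-0.56), renouncer dissection 1 or 3 (-0.11 and -0.14) or perseverer dissection 1 (-0.12). Thinned, olfactory bulb was at 0.999, hypoxia at 0.10 and cytokines at -0.39.

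Of 105 genes named and called, 70 kept call and direction in every setting run. Genes that changed sign were, on the neuron list scale, Slc17a7 at 0.36, Tbr1 at 0.017, Rbfox3 at 1.34, Gja1 at 0.64, Gabra2 at 0.998, Gabrb1 at 1.10, Gabrg3 at 1.12, Gabrg1 at 0.44, Gria2 at 0.55 and Egr1 at 0.12, and, with library totals, Nrgn at -0.023 and Cx3cr1 at -0.0038.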

Other observations

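Set against haemoglobin, the blood of the imprints was not of 1 composition. Red cell genes other than haemoglobin gave 15.7 to 24.6 counts per 1000 haemoglobin counts in all 5 imprints and 811 to 2014 in the dissections. Alas2 alone gave 10.8 to 17.9 in imprints and 6.15 to 17.3 in dissections, so most red cell list counts in dissections came from other members. Platelet genes gave 12.8 counts per 1000 haemoglobin counts in renouncer imprint 1 and 0.383 to 0.826 in the other 4 imprints, against 305 to 753 in the dissections. Each dissection held 3213 to 4021 counts of this list, but Pf4 had 173 and Ppbp 34 over all dissections. Other members made up most of it, so the red cell and platelet ratios in dissections do not measure blood. Neutrophil genes gave 9.68 in renouncer imprint 1 and 0.0434 to 0.297 in the others, against 9.29 to 33.3 in the dissections. MHC class II genes gave 1.93 in renouncer imprint 1, 1.79 in perseverer imprint 1 and 0.268 to 0.390 in the other 3, against 15.1 to 62.0 in the dissections. Alpha-type genes held 20.6% to 27.4% of haemoglobin counts in imprints and 12.1% to 18.4% in dissections, ranges that do not overlap and were not tested.

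Gene length showed a weak pattern over the 8921 genes tested that were at 10 CPM or more in every dissection, with blood cell list members left out. In 4 bins of equal size, from shortest to longest, the median log2 fold change was -0.12, -0.29, -0.43 and -0.35, and 17.7%, 24.04%, 27.6% and 24.1% of genes were lower in imprints. The Spearman correlation across genes was -0.105, a description since genes are not independent.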
